A study of Mus musculus with 9 samples.

Results

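Broad H3K4me3 promoters of mouse stem and progenitor cells are the places where the promoter mark H3K4me3 covered an unusually long stretch of chromatin. They were taken from the peak lists of LSK cells, the Lin-Sca-1+c-Kit+ gate of bone marrow. A peak belonged to them if it lay on chromosomes 1 to 19, was at least 1500 bp wide in the fl list, and overlapped a cKO peak by 1 bp or more. There were 675 such peaks among 9168 matched fl peaks (7.36%), and the other 8493 are called narrower here. The fl list held 10199 peaks on these chromosomes, and the 63415 peaks used of all lists give the scale of the whole series. All fl peaks of 1500 bp or more had a cKO partner, and the 1031 unmatched fl peaks had a median width of 408 bp. The broad peaks held 13.97% of the base pairs under fl H3K4me3 peaks of these chromosomes. Their width in fl chose them, so that width is a description and supports nothing else.

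The series compared mice that lack DEK, a chromatin-bound protein, with controls. The cKO mice were Dek fl/fl with Tie2-Cre, a Cre under a promoter active in endothelial and blood cells, and the fl mice were Dek fl/fl without Cre. Both carried the floxed alleles, were C57BL/6 and were 12 weeks old. CUT&Tag, in which an antibody brings a transposase to a chromatin protein so that the DNA beside it is tagged for sequencing, gave 9 libraries in 7 groups. H3K4me3 and the acetylation mark H3K27ac were profiled in about 50000 LSK cells, H3K9ac in about 20000 haematopoietic stem cells (HSC), each with 1 cKO and 1 fl library. DEK itself was profiled in 3 libraries of fl HSC. Whether cells of several mice were pooled is not given in the sources used here. With 1 library per genotype and mark there is no replicate check, and no test between genotypes was possible. Intervals below are 95% exact intervals over peaks (Clopper-Pearson for shares, order statistics for medians) and cover counting error only.

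H3K4me3 is placed by the SET1 and MLL methyltransferases at active and poised gene starts, mostly over CpG islands. At most promoters it spans the nucleosomes next to the start, with its maximum just downstream. Very long H3K4me3 domains are known in many cell types for genes of cell identity and for genes whose transcription varies little between cells. H3K27ac, placed by CBP and p300, marks active promoters and enhancers.

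The promoters of 3 of the 12 widest genes are shown, with those of 2 narrower genes, because base composition separated promoters with and without the mark. Each window runs from 250 bases before to 50 after an annotated RefSeq start (GRCm38.p6, 300 bases), and capitals mark CG dinucleotides. Cdk6 (chr5:3343643-3343942, + strand) encodes a kinase of the G1 phase, Foxo3 (chr10:42276646-42276945, − strand) a transcription factor that guards stem cell quiescence, and Cebpa (chr7:35119043-35119342, + strand) the transcription factor of granulocyte fate. Ndufs7 (chr10:80249199-80249498, + strand), a subunit of respiratory complex I, and Mrpl17 (chr7:105811038-105811337, − strand), a mitochondrial ribosomal protein, had narrower peaks.
Cdk6: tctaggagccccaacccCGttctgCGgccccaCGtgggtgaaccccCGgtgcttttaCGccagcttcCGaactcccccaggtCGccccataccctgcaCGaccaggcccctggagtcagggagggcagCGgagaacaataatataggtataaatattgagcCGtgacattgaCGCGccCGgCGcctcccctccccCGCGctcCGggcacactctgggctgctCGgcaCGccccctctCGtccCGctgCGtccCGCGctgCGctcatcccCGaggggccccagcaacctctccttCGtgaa
Foxo3: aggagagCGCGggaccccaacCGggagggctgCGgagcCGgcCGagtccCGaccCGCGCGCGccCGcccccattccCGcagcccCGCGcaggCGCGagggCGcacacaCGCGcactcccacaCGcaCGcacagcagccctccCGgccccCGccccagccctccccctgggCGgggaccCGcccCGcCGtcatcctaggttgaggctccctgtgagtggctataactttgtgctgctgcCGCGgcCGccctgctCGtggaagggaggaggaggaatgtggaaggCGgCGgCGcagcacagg
Cebpa: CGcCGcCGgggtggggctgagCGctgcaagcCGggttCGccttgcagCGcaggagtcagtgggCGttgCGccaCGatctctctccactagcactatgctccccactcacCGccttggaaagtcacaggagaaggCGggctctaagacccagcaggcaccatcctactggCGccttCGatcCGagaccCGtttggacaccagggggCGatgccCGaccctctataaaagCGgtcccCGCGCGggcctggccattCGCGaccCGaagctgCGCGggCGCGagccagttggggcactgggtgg
Ndufs7: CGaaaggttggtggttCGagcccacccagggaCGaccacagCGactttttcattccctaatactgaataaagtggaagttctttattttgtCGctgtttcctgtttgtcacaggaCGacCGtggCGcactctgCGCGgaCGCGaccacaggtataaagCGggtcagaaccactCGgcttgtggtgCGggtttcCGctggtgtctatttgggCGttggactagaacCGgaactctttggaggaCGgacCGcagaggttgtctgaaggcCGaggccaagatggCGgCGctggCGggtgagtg
Mrpl17: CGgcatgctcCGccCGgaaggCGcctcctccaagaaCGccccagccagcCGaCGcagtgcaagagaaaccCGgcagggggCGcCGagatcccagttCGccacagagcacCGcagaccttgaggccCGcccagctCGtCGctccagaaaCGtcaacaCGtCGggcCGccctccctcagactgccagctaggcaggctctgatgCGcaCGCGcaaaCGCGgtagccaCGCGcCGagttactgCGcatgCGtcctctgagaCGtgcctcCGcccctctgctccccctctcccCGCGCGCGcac
The Cdk6, Foxo3 and Cebpa windows held 27, 35 and 29 CG dinucleotides, against 24 and 35 in the Ndufs7 and Mrpl17 windows, so single promoters of both kinds overlapped in this count.

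Over all promoters with the start inside a peak, the 708 windows at broad peaks (577 genes) had a median GC content of 67.0% (66.3 to 68.0). The 6403 windows at narrower peaks had 63.7% (63.3 to 64.0), and the 12974 windows with no matched peak had 52.0%. The median number of CG dinucleotides was 28 at broad peaks, 25 at narrower ones and 6 without a peak. Windows at peaks of 1000 to 1499 bp already had a median of 28 and a GC content of 66.0%, and those under 500 bp had 19 and 58.7%. The GC box GGGCGG, searched on both strands, stood in 77.8% of the windows at broad peaks, 73.5% at narrower peaks and 47.0% of all 20085 windows. CGGAAG, a core of ETS sites, was found in 29.0% (25.6 to 32.4) of windows at broad peaks, against 40.6% (39.4 to 41.9) at narrower peaks and 21.5% of all windows. The NRF1 palindrome, GCGCA followed directly by TGCGC, stood in 0.847% (0.312 to 1.84) at broad and 2.81% (2.42 to 3.25) at narrower peaks, and in 1.34% of all windows. For TATAAA the shares were 5.93% (4.31 to 7.93) at broad and 4.44% (3.94 to 4.97) at narrower peaks, with 12.7% over all windows, and of the 5 windows shown Cdk6 and Cebpa (broad) and Ndufs7 (narrower) hold it. CCAAT was as common at broad (39.97%) as at narrower peaks (38.01%) and in all windows (38.1%). TGTGGT, a core of RUNX sites, stood in 6.78% of windows at broad peaks, 11.0% at narrower peaks and 14.8% of all windows. CGGAAG became rarer with width, from 43.0% at peaks of 500 to 999 bp through 37.7% and 30.1% to 23.8% at peaks of 2000 bp or more, while the peaks under 500 bp were at 36.0%. A longer peak can hold the starts of several genes, and these motifs were searched in a window of fixed length.

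Some broad peaks lay beside microRNA genes, and mature sequences of these are shown because 4 of the 20 peaks with a hairpin within 5 kb had no protein-coding start to name them. The other arms shown belong to peaks that also hold a protein-coding start, at Mcm7, Smc4 and Tspoap1. This look-up was chosen after values had been seen. Mature microRNAs come from RefSeq (GRCm38.p6), and capitals mark the seed, bases 2 to 8, which pairs with target transcripts. A first group shares the seed AAAGUGC.
mmu-miR-17-5p: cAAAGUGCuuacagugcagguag
mmu-miR-20a-5p: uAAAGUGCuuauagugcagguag
mmu-miR-106b-5p: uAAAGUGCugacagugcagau
mmu-miR-93-5p: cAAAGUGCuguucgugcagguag
A second group, also from the Mir17 cluster, shares GUGCAAA, and the remaining arms of that cluster have seeds of their own.
mmu-miR-19a-3p: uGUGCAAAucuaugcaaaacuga
mmu-miR-19b-3p: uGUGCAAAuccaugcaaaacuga
mmu-miR-18a-5p: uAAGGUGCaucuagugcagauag
mmu-miR-92a-3p: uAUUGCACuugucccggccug
The arms of Mir15b and Mir16-2 share AGCAGCA.
mmu-miR-15b-5p: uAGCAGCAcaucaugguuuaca
mmu-miR-16-5p: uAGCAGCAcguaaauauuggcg
The others are miR-21a, miR-196b from the Hoxa cluster, miR-125a and let-7e, which are neighbours, and miR-142a, which is abundant in blood cells.
mmu-miR-21a-5p: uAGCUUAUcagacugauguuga
mmu-miR-196b-5p: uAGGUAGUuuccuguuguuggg
mmu-miR-125a-5p: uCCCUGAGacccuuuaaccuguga
mmu-let-7e-5p: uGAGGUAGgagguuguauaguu
mmu-miR-142a-3p: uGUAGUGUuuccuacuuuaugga
mmu-miR-142a-5p: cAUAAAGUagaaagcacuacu

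The Mir17 cluster lay 1099 bp from a broad peak (chr14:115040852-115042572) that was 1842 bp wide in cKO and 1721 bp in fl and carried an H3K27ac peak in cKO and none in fl. Mir125a and Mirlet7e lay 2511 and 2051 bp from a peak of 1550 bp in cKO and 1538 bp in fl, with H3K27ac again in cKO and not in fl. Mir21a lay 941 bp from a peak of 2120 bp in cKO and 2148 bp in fl (chr11:86585099-86587246), and Mir196b lay inside a peak of 1552 bp in cKO and 1636 bp in fl. Neither of these peaks had H3K27ac in either genotype. The Mir142 hairpin lay inside the broad peak assigned to Tspoap1 (2032 bp in cKO, 1938 bp in fl), which had no H3K27ac in either genotype. Mir106b and Mir93 lie within Mcm7, 4700 and 4908 bp from its broad promoter peak, and Mir15b and Mir16-2 lie 3178 and 3308 bp from that of Smc4. In all, 20 broad peaks (2.96%, 1.82 to 4.54) had a microRNA hairpin within 5 kb, against 171 narrower peaks (2.01%, 1.73 to 2.34), so the intervals overlapped. The lists show marks near these genes and not their transcripts.

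Before the widths are compared, a feature of the deposited lists must be given. The cKO and fl H3K4me3 lists shared peak edges at the very same base more often than the H3K27ac lists did. Among the broad peaks 152 (22.5%, 19.4 to 25.9) had their start, their end or both at the same base in cKO and fl, and 18 had both. The share was 21.9% of narrower peaks, 15.5% of 316 matched H3K9ac peaks and 2.04% of 8571 matched H3K27ac peaks. Between marks it was 1.87% (H3K4me3 and H3K27ac in cKO) and 1.61% (the same in fl). Results on width are therefore given also for the 523 broad peaks with no shared edge, an alternative chosen after seeing the data.

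Most broad peaks stayed long in cKO cells. Their partners in cKO had a median summed width of 1624 bp, against 1716 bp in fl. The median cKO-over-fl width ratio was 0.953 (0.943 to 0.961), with quartiles of 0.863 and 1.00. Narrower peaks were 757 bp wide in cKO and 803 bp in fl, with a median ratio of 0.958 (0.954 to 0.963), so the ratio of broad peaks lay within 0.01 of it. The width was smaller in cKO for 474 broad peaks (70.2%), against 62.2% of all matched peaks. Peaks of 1000 to 1499 bp were at 70.8% with a median ratio of 0.938, and those under 500 bp at 37.3% with 1.07. The cKO width was smaller by 1.5 times or more for 41 broad peaks (6.07%), against a background of 6.25%. It was larger by that factor for 0, against 2.9%. Split into bands of fl −log10 q, the share smaller by 1.5 times or more was higher for broad than narrower peaks in every band. In the band of 20 to 30 it was 9.65% (4.92 to 16.6) against 5.80% (4.76 to 6.98). At 50 or more it was 2.46% (0.908 to 5.28) against 0.963% (0.527 to 1.61). The intervals of broad and narrower peaks overlapped in each band. In cKO 466 broad peaks (69.0%, 65.4 to 72.5) were again 1500 bp or wider. This share was 62.9% for peaks of 1500 to 1999 bp and 93.4% for those of 2000 bp or more, and 1.30% of narrower peaks crossed the line.

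These values depend on the list that chose the peaks. Of the cKO peaks on these chromosomes 539 were 1500 bp or wider, and all overlapped a fl peak. Chosen by their cKO width, the peaks had a median cKO-over-fl ratio of 1.00 (0.999 to 1.01), and 84.8% (81.5 to 87.7) were also 1500 bp wide in fl. The 466 peaks past the line in fl, and in cKO by summed width, had a ratio of 0.992 (0.982 to 0.997). By the widest single cKO peak, 447 broad peaks (66.2%) reached 1500 bp. Without peaks that share an edge, the ratio of the fl-chosen peaks was 0.941 (0.933 to 0.950) and 65.4% reached 1500 bp in cKO. The cKO peaks covered a median of 93.9% of a broad fl peak and 91.6% of a narrower one. A broad fl peak overlapped 2 cKO peaks in 38 cases (5.63%), against 21 narrower peaks (0.247%) with 2 or more partners, and 4 broad peaks shared a cKO partner with another fl peak.

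**Figure D1:**
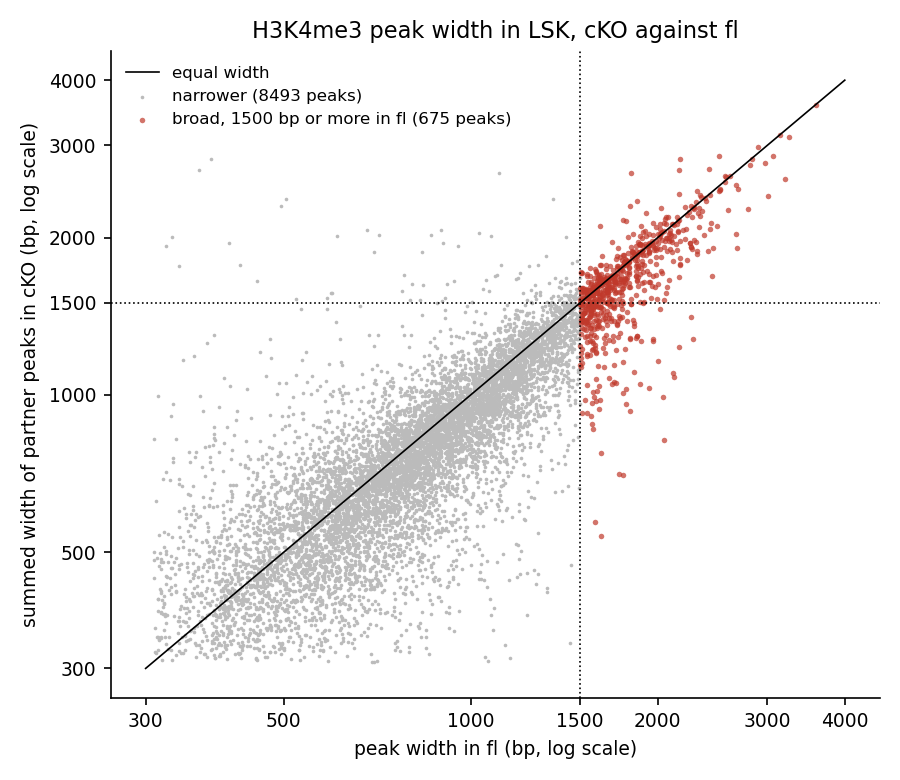
Width of the H3K4me3 peak in fl (x axis, bp, log scale) against the summed width of its overlapping peaks in cKO (y axis, bp, log scale), 1 point per matched peak, with 675 broad peaks in red and 8493 narrower ones in grey. Most red points lie close to the line of equal width, and 466 lie above the dotted line at 1500 bp in cKO.

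The 12 widest peaks with a protein-coding start are given next, and 3 peaks without one were in their range (2780, 2974 and 2273 bp in cKO, against 2976, 2905 and 2796 bp in fl). The widest was Cdk6, with 3591 bp in cKO and 3591 bp in fl and both edges at the same base. Midn, which encodes a protein of nuclear protein turnover, had 3120 bp in cKO and 3252 bp in fl. Zfp36l2, an RNA-binding protein that shortens the life of mRNAs, had 2588 bp in cKO and 3205 bp in fl. Msl2 had 3147 bp in cKO and 3142 bp in fl, with the peak start at the same base, and is part of a complex that acetylates histone H4. Both genotypes thus kept nearly equal widths at Cdk6, Midn and Msl2, while the cKO peak of Zfp36l2 was shorter. Ppp1r9b, a scaffold of protein phosphatase 1, had 2870 bp in cKO and 3063 bp in fl. At the start shared by Cramp1l and Ift140 the fl peak of 3006 bp stood against 2 cKO peaks with a sum of 2407 bp. The first of these began at the same base as the fl peak. Cux1, a homeobox transcription factor, had 2830 bp in cKO and 2837 bp in fl, with the peak start at the same base. Ubtf, the factor that opens ribosomal DNA for transcription, had 2751 bp in cKO and 2812 bp in fl, with its end at the same base. Foxo3 had 2473 bp in cKO and 2690 bp in fl. Kmt2e, of the MLL family, had 1910 bp in cKO and 2686 bp in fl. The start shared by Cbx3 and Hnrnpa2b1, a heterochromatin protein and an RNA-binding protein, had 2525 bp in cKO and 2672 bp in fl. Cebpa had 2033 bp in cKO and 2671 bp in fl. Kmt2e, Cebpa, Zfp36l2 and the start of Cramp1l and Ift140 were the 4 of these 12 whose cKO width was less than 0.9 times the fl width.

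**Figure D2:**
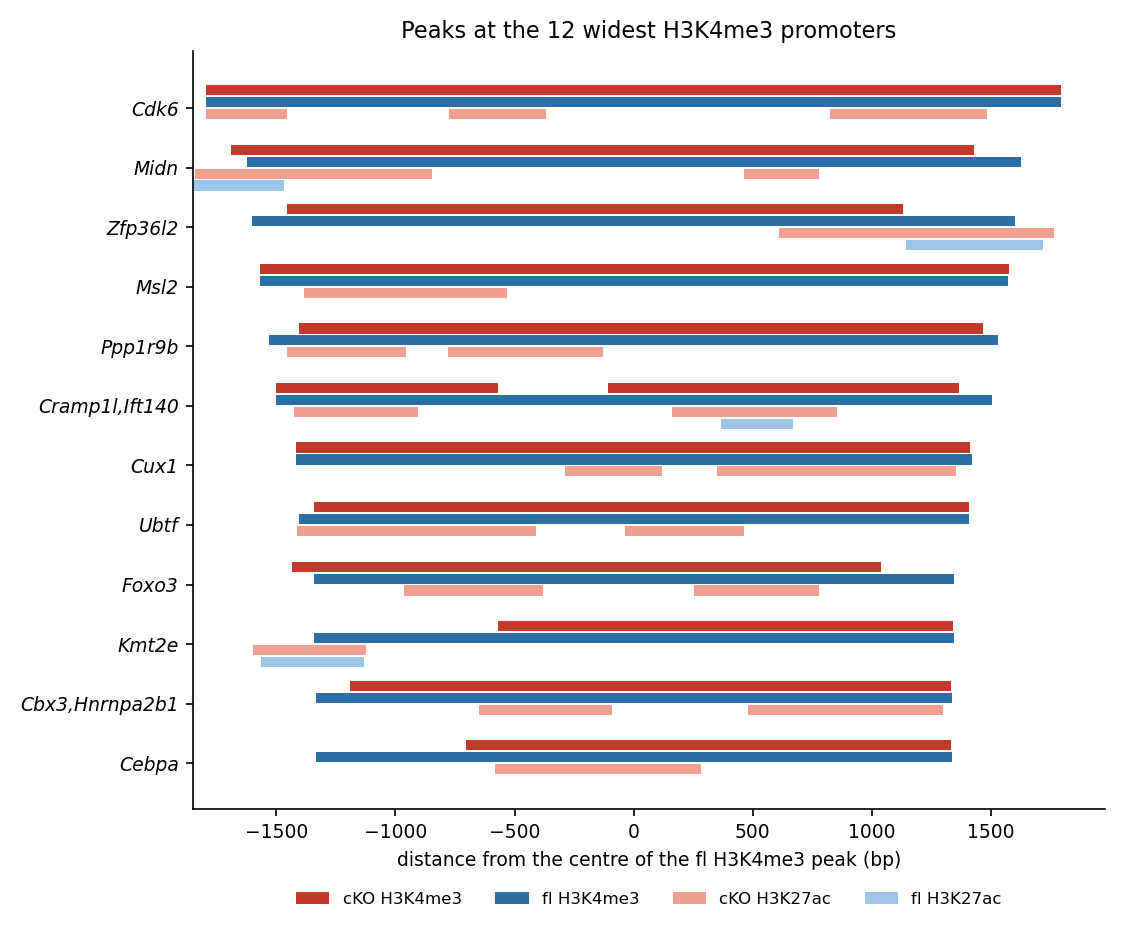
Extent of the peaks at the 12 widest H3K4me3 promoters with a protein-coding start, as distance in bp from the centre of the fl H3K4me3 peak, with H3K4me3 in cKO and fl (dark red and dark blue) above H3K27ac in cKO and fl (light red and light blue). The H3K4me3 bars of Cdk6, Msl2 and Cux1 nearly coincide, and each of these has an edge at the same base in both lists. A cKO H3K27ac bar with no fl bar is seen at 8 of the 12 promoters. Over all 675 broad peaks this state made up 31.4%.

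At the extremes of the ratio the cKO peaks were 1.23 to 1.30 times as wide or 0.332 to 0.407 times as wide as in fl. The highest ratios were at Rbm15, an RNA-binding protein of the m6A pathway (2103 bp in cKO, 1616 bp in fl), and Smarca2, a chromatin remodelling ATPase (2823 bp in cKO, 2170 bp in fl). Hexim1, which restrains the elongation factor P-TEFb (2345 bp in cKO, 1853 bp in fl), Rasgrp2, an activator of Rap1 (2689 bp in cKO, 2162 bp in fl), and the shared start of Dcaf6 and Mpc2 (2164 bp in cKO, 1760 bp in fl) followed. The lowest were at Tent5c, a poly(A) polymerase (538 bp in cKO, 1619 bp in fl), and Igfbp4, an IGF-binding protein (572 bp in cKO, 1585 bp in fl). Mcm6, a subunit of the replicative helicase, had 2 cKO peaks with a sum of 819 bp in place of 2050 bp in fl. Tet2, an enzyme that oxidises 5-methylcytosine, had 704 bp in cKO and 1757 bp in fl, and Chsy1, a chondroitin synthase, had 706 bp in cKO and 1735 bp in fl. Over all broad peaks 90.7% had H3K27ac in cKO and 59.7% in fl. All 5 with the lowest ratios had an H3K27ac peak in cKO, and Igfbp4, Mcm6 and Chsy1 had one in fl as well. Of those with the highest ratios, Rbm15, Smarca2, Rasgrp2 and the start of Dcaf6 and Mpc2 had it in cKO only. Hexim1 had it in neither genotype. These genes were picked for their ratios in single libraries. Just inside the line stood Ppp4r3a (1599 bp in cKO), Ago2 (1492 bp) and Akap8 (1493 bp), each with 1500 bp in fl, and a peak on chromosome 3 with 1241 bp in cKO and 1501 bp in fl. Just outside, with 1499 bp in fl, stood Arf6 (1673 bp in cKO), Daxx (1336 bp), the shared start of Dnajb4 and Fubp1 (1444 bp) and Sh2b1 (961 bp).

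Broad peaks lay over gene starts about as often as narrower ones. A protein-coding start stood within 1 kb of 619 broad peaks (91.7%, 89.4 to 93.7) and 90.2% of narrower ones. A start inside the peak was found for 81.9% of broad and 70.3% of narrower peaks, a count in which peak length was not held fixed. Broad peaks more often held 2 or more genes (124 peaks, 18.4%, against 11.3% of narrower peaks), a divergent pair (91 peaks, 13.5%, 11.0 to 16.3, against 7.92%, 7.36 to 8.52) and the start of a long noncoding RNA (135 peaks, 20.0%, 17.04 to 23.2, against 13.3%, 12.6 to 14.1). Narrower peaks of 1000 to 1499 bp were already at 17.8% for 2 or more genes, 13.8% for divergent pairs and 15.6% for long noncoding RNAs. Of peaks of 2000 bp or more, 13.2% held 2 or more genes. The noncoding starts at named genes include Gm36470 at Cdk6, Gm36279 at Zfp36l2 and Gm38485 at Foxo3. Some genes had no strand in the annotation used, and 87 broad peaks rest only on genes placed by either end. Of the 56 broad peaks with no protein-coding start, 16 lay at a long noncoding RNA start and 40 at neither. The widest of the former without H3K27ac was at Neat1 (chr19:5843116-5845631, 2479 bp in cKO, 2516 bp in fl), the RNA around which paraspeckles form. Per chromosome the broad share ran between 4.59% of matched peaks on chromosome 4 and 11.1% on chromosome 17. Another matched peak stood within 5 kb of 7.11% of broad and 7.18% of narrower peaks. Genes with a broad peak had a median length of 22.3 kb (20.0 to 25.6), against 23.8 kb with a narrower peak and 12.3 kb with none.

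The added length of broad peaks lay mostly on the downstream side of the start. Among the 377 broad peaks with 1 gene of known strand and its start inside, the peak ran a median of 1230 bp downstream in cKO and 1305 bp in fl. Upstream it ran 371 bp in cKO and 402 bp in fl. The 4353 narrower peaks of this kind ran 588 bp downstream in cKO and 606 bp in fl, and 159 bp upstream in cKO and 185 bp in fl. The downstream part was the longer one for 87.5% of broad (83.8 to 90.7) and 87.6% of narrower peaks, so broad peaks were longer on both sides with the same side in front. The fl summit stood 294 bp downstream of the start in broad and 184 bp in narrower peaks. The median difference of cKO minus fl was −20 bp downstream and −12 bp upstream for broad peaks, and −8 bp on both sides for narrower ones. At 1000 bp downstream, 71.6% of broad starts were under an H3K4me3 peak in cKO and 78.2% in fl, against 8.55% of narrower starts in cKO and 9.69% in fl.

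**Figure D3:**
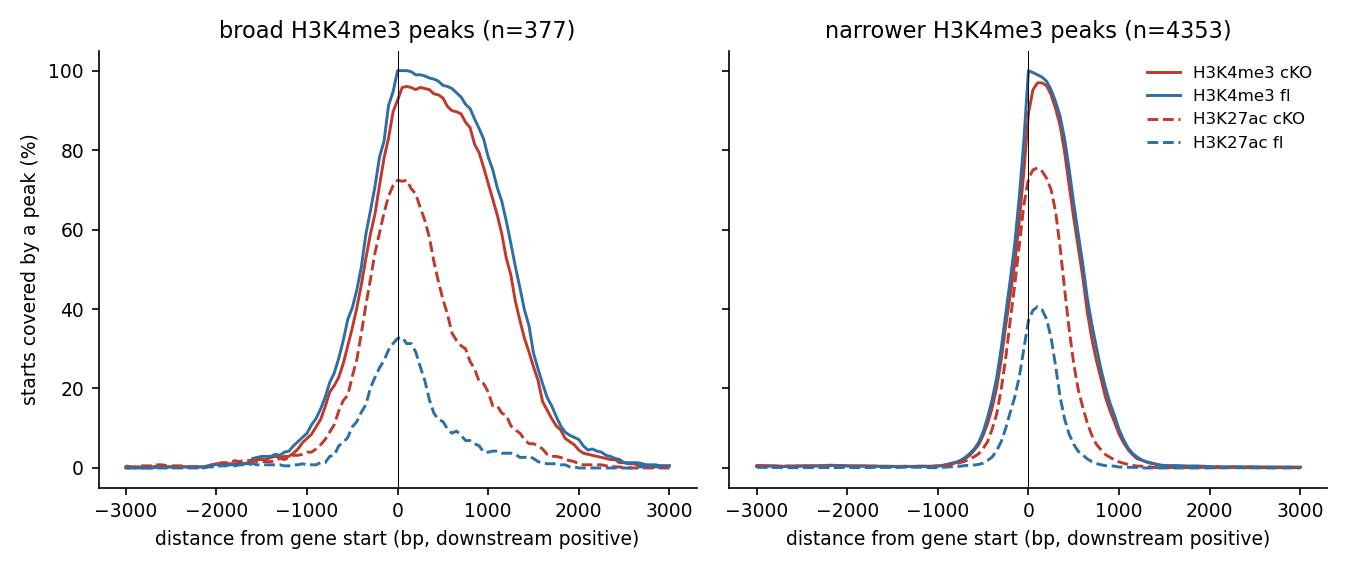
Share of gene starts (y axis, %) with a peak at each distance from the start (x axis, bp, downstream positive), for 377 broad (left) and 4353 narrower peaks (right) with 1 gene of known strand, with H3K4me3 solid and H3K27ac dashed, cKO in red and fl in blue. The solid lines of broad peaks fall off beyond 1000 bp downstream, and the dashed lines reach their maximum near the start. By 500 bp the dashed lines are at 42.4% (cKO) and 11.7% (fl) at broad peaks, and at 26.3% (cKO) and 5.97% (fl) at narrower ones.

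Broad peaks were long without being tall. Their median summit fold enrichment, the authors' value within each library, was 7.62 in cKO and 7.55 in fl. Narrower peaks had 9.49 in cKO and 10.0 in fl. The median −log10 q in fl was 43.0 for broad and 26.1 for narrower peaks. As a description across peaks of 1 library, Spearman's rho between width and summit fold in fl was −0.48 within the broad peaks and 0.07 within the narrower ones. The rho between fl and cKO width was 0.68 over the 675 broad peaks and 0.81 over the narrower ones, where the range of widths is larger.

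H3K27ac was present on most broad peaks, more often in the cKO list than in the fl list. A cKO H3K27ac peak overlapped 612 broad peaks (90.7%, 88.2 to 92.8) and 77.8% of narrower ones, against a background of 78.7% of all matched peaks. A fl H3K27ac peak overlapped 403 broad peaks (59.7%, 55.9 to 63.4) and 45.9% of narrower ones, with a background of 46.9%. Both genotypes had it at 400 broad peaks, cKO only at 212 (31.4%), fl only at 3 and neither at 60 (8.89%). Among all matched peaks both made up 46.4%, cKO only made up 32.3%, fl only 0.545% and neither 20.7%. The cKO-only share of broad peaks was thus at the background, and the share with no H3K27ac was below it. The cKO H3K27ac list held 16331 peaks and the fl list 10494, and read depth is unknown, so list length and genotype cannot be told apart.

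The longer the window, the more chances an acetylation peak has to fall in it. In a window of 500 bp around the fl H3K4me3 summit, equal for all peaks, H3K27ac was found at 76.0% (72.6 to 79.2) of broad and 75.4% of narrower peaks in cKO. In fl the shares were 40.6% (36.9 to 44.4) and 43.1% (42.0 to 44.2). At a fixed window the broad peaks were thus no more often acetylated than narrower ones. Among peaks of similar fl −log10 q the summit window was acetylated less often at broad than at narrower peaks in each of 5 bands. Summit height was not held equal there. The median fl summit fold was 6.72 at broad and 10.4 at narrower peaks in the band of 20 to 30, and 8.51 and 12.5 at 50 or more. In the band of 20 to 30 the shares were 60.5% of broad and 77.1% of narrower peaks in cKO, and 24.6% and 42.5% in fl. At 50 or more they were 86.1% and 90.4% in cKO, and 52.5% and 62.2% in fl. In the band of 30 to 40 the broad and narrower shares in cKO were close, at 80.8% and 81.9%. The cKO intervals of broad and narrower peaks overlapped in every band but 20 to 30. In fl they overlapped under 20 and in the band of 30 to 40.

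**Figure D4:**
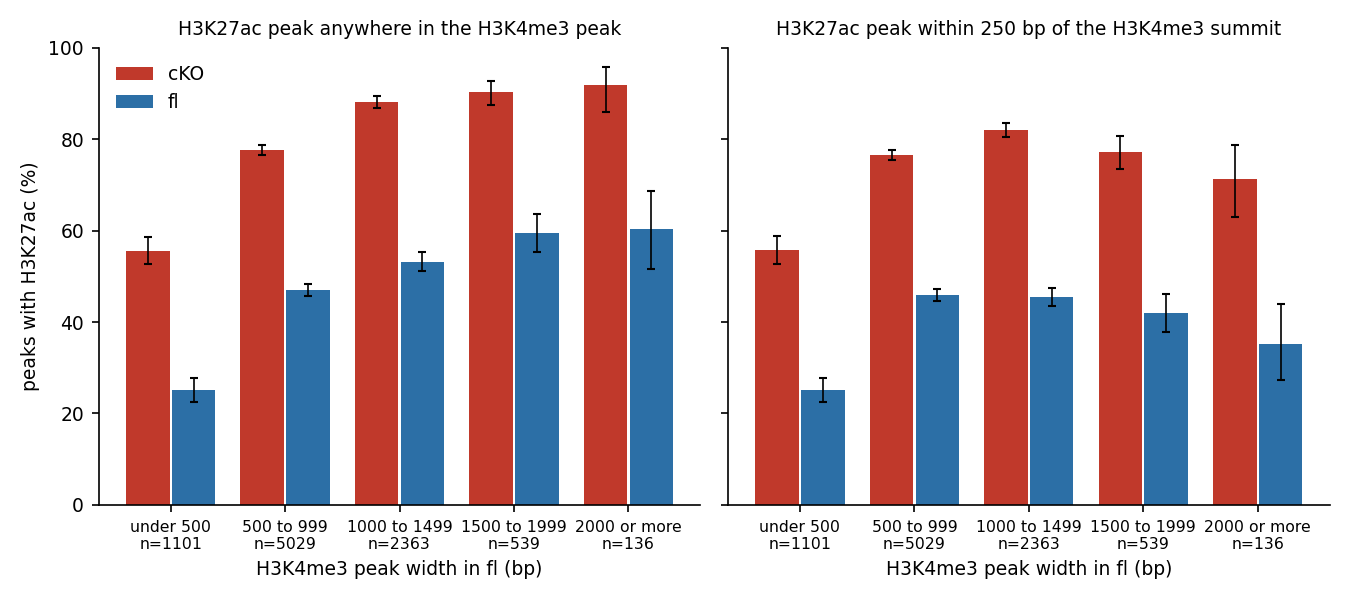
Share of H3K4me3 peaks with an H3K27ac peak (y axis, %, with 95% Clopper-Pearson bars) by fl H3K4me3 width (x axis, bp), in cKO (red) and fl (blue), counted anywhere in the peak (left) or within 250 bp of the fl summit (right). On the left the share is highest in the widest class, 91.9% in cKO and 60.3% in fl, and on the right it is highest at 1000 to 1499 bp in cKO and is lower at 2000 bp or more.

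Acetylation filled a part of the broad peak. H3K27ac peaks covered a median of 42.4% of a broad peak in cKO and 16.0% in fl, against 57.0% of a narrower peak in cKO and 0% in fl. The fl median of narrower peaks is 0% because only 45.9% of them had any fl H3K27ac peak. At 1000 to 1499 bp the medians were 52.8% in cKO and 20.3% in fl. At a fl −log10 q of 50 or more, broad peaks had 50.8% in cKO and 19.1% in fl. Narrower peaks of that band had 63.1% in cKO and 33.6% in fl. In the bands under 30 both fl medians were 0%. These shares are taken over the H3K4me3 width, which chose the broad peaks. At the start itself 72.4% of broad starts were covered by H3K27ac in cKO and 32.6% in fl, and 500 bp downstream 42.4% and 11.7%. Narrower starts were at 72.7% in cKO and 37.1% in fl at the start, and at 26.3% and 5.97% 500 bp downstream. At that distance H3K27ac thus covered more of the broad than of the narrower starts. The H3K27ac was also more often in pieces: 126 broad peaks (18.7%) held 2 or more H3K27ac peaks in cKO and 24 (3.56%) in fl, against 1.80% of narrower peaks in cKO and 0.212% in fl. Peak length was not held fixed in this count. The cKO share rose with width, with 5.21% at 1000 to 1499 bp, 15.0% at 1500 to 1999 bp and 33.1% at 2000 bp or more. Cdk6 held 3 in cKO, with widths of 340, 409 and 659 bp. Cux1, Ubtf and Foxo3 held 2 each in cKO.

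With both H3K27ac lists held to their strongest 10494 peaks, cKO acetylation was found at 76.1% of broad and 64.5% of narrower peaks. The states of the broad peaks were then both at 364, cKO only at 150 (22.2%, 19.1 to 25.6), fl only at 39 (5.78%, 4.14 to 7.81) and neither at 122. The narrower peaks had cKO only at 21.9% and fl only at 3.27%. At equal list length cKO only was thus still more frequent than fl only in both sets. The cKO-only share of broad peaks held that of narrower ones within its interval, and the fl-only share was above that of narrower ones (2.91 to 3.67). In the full lists, among peaks with no fl H3K27ac, 212 of 272 broad peaks (77.9%) and 2752 of 4594 narrower ones (59.9%) had a cKO peak. Peaks of 1000 to 1499 bp were already at 75.4% (834 of 1106). At a fl −log10 q of 50 or more the shares were 82.4% for broad and 78.8% for narrower peaks. Overlap was counted anywhere in the peak, so peak length was not held fixed. At equal list length the cKO-only and unacetylated peaks numbered 150 and 122 for broad and 1861 and 2733 for narrower peaks. In the full lists again, broad peaks with 2 or more genes were acetylated at 91.9% in cKO and 70.2% in fl, and those with no protein-coding start at 67.9% in cKO and 33.9% in fl. The median cKO-over-fl H3K4me3 width ratio was 0.952 where both genotypes had H3K27ac, 0.948 where cKO only did and 0.960 where neither did. The shares smaller in cKO by 1.5 times or more were less alike. They were 10 of 60 peaks (16.7%, 8.29 to 28.5) with neither and 16 of 400 (4%, 2.30 to 6.41) with both. With cKO only it was 14 of 212 (6.60%, 3.66 to 10.8). Peak strength was not held equal, with a median fl −log10 q of 31.5 with neither and 46.5 with both. The difference was not tested.

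Among the 12 widest promoters all had H3K27ac in cKO and 4 in fl (Midn, Zfp36l2, Kmt2e and the start of Cramp1l and Ift140). Over all broad peaks the shares were 90.7% in cKO, 59.7% in fl and 31.4% in cKO only. In the class of 2000 bp or more, cKO only stood at 31.6%. The widest peaks with a protein-coding start and no H3K27ac in either genotype were at Cd93, a C-type lectin receptor of early progenitors (2267 bp in cKO, 2291 bp in fl), at Cbfa2t3, the corepressor ETO2 (2291 bp in cKO, 2285 bp in fl), and at Zfp36, which destabilises mRNAs (2302 bp in cKO, 2260 bp in fl). The start shared by Cbx5 and Hnrnpa1 (2162 bp in both), Adgrg1, the adhesion receptor GPR56 of stem cells (2147 bp in cKO, 2158 bp in fl), and Tsc22d4 (1970 bp in cKO, 2086 bp in fl) came next. The cKO widths of these 6 lay between 0.944 and 1.02 times those in fl. The 3 peaks with H3K27ac in fl only were at the start shared by Ap4m1 and Mcm7 (1644 bp in cKO, 1901 bp in fl), at Zfpm1, the GATA cofactor FOG1 (1885 bp in cKO, 1818 bp in fl), and at Tmc6 (924 bp in cKO, 1537 bp in fl). At Mcm7 the fl H3K27ac peak had a fold of 9.02, at Zfpm1 6.72 and at Tmc6 4.79, the authors' values within the fl list.

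By function, broad peaks were frequent at early response, splicing, feedback and stem cell regulators and rare at housekeeping genes of mitochondria and proteasome. Of 20665 protein-coding genes 9142 (44.2%) had a matched peak within 1 kb of the start and 745 (3.61%) a broad one, so 8.15% of genes with a peak had a broad one. The lists were chosen with earlier results of these data known, some genes share a peak or a list, and no list was tested. Of the 745 genes with a broad peak, H3K27ac was in both genotypes at 469, in cKO only at 220, in fl only at 4 and in neither at 52, the background for the states given by list below. In the stem cell transcription factor list 10 of 27 genes with a matched peak had a broad one, 7 of them also 1500 bp wide in cKO. Tal1, a master regulator of blood stem cells, had 1880 bp in cKO and 1935 bp in fl. Its relative Lyl1 had 1972 bp in cKO and 2055 bp in fl and no H3K27ac in either. Sox4 had 1982 bp in cKO and 2288 bp in fl, Mef2c 1684 bp in cKO and 2164 bp in fl, and Mycn 1952 bp in cKO and 2001 bp in fl, all with H3K27ac in both. Prdm16, a factor of stem cell upkeep, had 1940 bp in cKO and 1874 bp in fl with H3K27ac in cKO only. Myb, needed for definitive blood formation, was 882 bp in cKO and 1567 bp in fl. Runx1 (1076 bp in cKO, 1160 bp in fl), Gata2 (1100 bp in cKO, 978 bp in fl) and Meis1 (1257 bp in cKO, 1268 bp in fl) were narrower, so key stem cell regulators stood on both sides of the line.

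Of the stem and progenitor receptors 3 of 18 were broad, and all 3 had H3K27ac in cKO. Kit, the stem cell factor receptor, had 1744 bp in cKO and 1586 bp in fl, Cd34 had 1232 bp in cKO and 1585 bp in fl, and Cxcr4, the homing receptor, had 1462 bp in cKO and 2017 bp in fl. Cxcr4 was the 1 of these with H3K27ac in fl too. Myeloid genes had 2 of 5 (Cebpa and Klf4, 2191 bp in cKO and 2081 bp in fl) and lymphoid genes 2 of 6 (Satb1, 1801 bp in cKO and 1941 bp in fl, and Foxp1, 1996 bp in cKO and 1889 bp in fl). All 5 erythroid and megakaryocyte genes and all 4 endothelial genes with a matched peak had a narrower one. The 18 stromal and 25 non-blood developmental genes had no matched peak.

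Immediate early genes, which cells switch on within minutes of a stimulus, had 14 of 24 genes with a broad peak, the highest share of the 19 lists, and 13 were 1500 bp wide in cKO. Fosb had 2700 bp in cKO and 2416 bp in fl, Junb 2379 bp in both, Zfp36 2302 bp in cKO and 2260 bp in fl, and Ier3 1917 bp in cKO and 2263 bp in fl. Fos (1561 bp in cKO, 1542 bp in fl) and Jun (1764 bp in cKO, 1848 bp in fl), the subunits of AP-1, had no H3K27ac in either genotype, as had Zfp36. The other 11 had it in cKO, and 7 of them in fl as well. Genes of signalling feedback had 13 of 33, all with H3K27ac in cKO (8 in both genotypes and 5 in cKO only). Of the 745 genes with a broad peak, 469 had it in both and 220 in cKO only. Spry2, which restrains receptor tyrosine kinases, had 1886 bp in cKO and 2409 bp in fl. Dusp2, a MAP kinase phosphatase, had 2347 bp in cKO and 2392 bp in fl, and Nfkbie, an inhibitor of NF-kB, had 1886 bp in cKO and 2071 bp in fl. Cish, an inhibitor of cytokine signalling, had 1053 bp in cKO and 1716 bp in fl, and Spred2 1027 bp in cKO and 1777 bp in fl.

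In the AKT, PI3K and FOXO list 7 of 24 genes were broad, and all 7 were 1500 bp or wider in cKO too. Akt1 had 1689 bp in cKO and 1843 bp in fl, and Foxo1 had 1996 bp in cKO and 2072 bp in fl. Akt1, Foxo1 and Foxo3 had H3K27ac in cKO only, while Pik3r1, Ddit4 and Trib1 had it in both. Cell cycle genes had 7 of 35, among them Cdk6 and the inhibitors Cdkn1a (1635 bp in cKO, 1614 bp in fl), Cdkn1b (1529 bp in cKO, 1505 bp in fl) and Cdkn2c (1863 bp in cKO, 1841 bp in fl). The 3 inhibitor genes were slightly wider in cKO, within 1.02 times the fl width.

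Chromatin regulators had 10 of 38, of which H3K27ac was in cKO only at 7, against 220 of all 745 broad genes. They were Kmt2a (1947 bp in cKO, 1866 bp in fl), Kmt2c (1921 bp in cKO, 2259 bp in fl), Setd1a (1474 bp in cKO, 1574 bp in fl), Dnmt3a (1911 bp in cKO, 1932 bp in fl), Tet2, Arid1a (2052 bp in cKO, 2034 bp in fl) and Ctcf (1920 bp in cKO, 2050 bp in fl). Kmt2a, Kmt2c and Setd1a belong to the families that methylate H3K4, Dnmt3a methylates DNA, Arid1a is part of a remodelling complex and Ctcf folds chromatin into loops. Kmt2e and Chd4 had H3K27ac in both and Brd2 in neither. Dek itself had a narrower peak (939 bp in cKO, 1060 bp in fl), and a peak at its start does not show whether the gene was deleted.

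Splicing factors had 14 of 35, with 12 at 1500 bp or more in cKO. The SR protein genes Srsf3 (2338 bp in cKO, 2309 bp in fl) and Srsf2 (2126 bp in cKO, 2019 bp in fl) and the hnRNP genes Hnrnpa2b1, Hnrnpa1 and Hnrnpd (1895 bp in cKO, 1989 bp in fl) led. Sf3b1, of the U2 particle, had 1141 bp in cKO and 1704 bp in fl. Chaperones had 5 of 28, all with H3K27ac in both genotypes, including Hsp90ab1 (1891 bp in both) and the start shared by Hspd1 and Hspe1 (1624 bp in cKO, 1765 bp in fl). Ribosomal protein genes had 6 of 47, with Rpl7 (1865 bp in cKO, 1791 bp in fl) the widest, and Rpl4 and Rpl15 without H3K27ac in either. Proteasome genes had 1 of 31 (Psma7, 1387 bp in cKO, 1540 bp in fl). Respiratory chain genes had 0 of 39, with a median fl width of 836 bp, and mitochondrial ribosomal protein genes 0 of 32, with 714 bp.

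**Figure D5:**
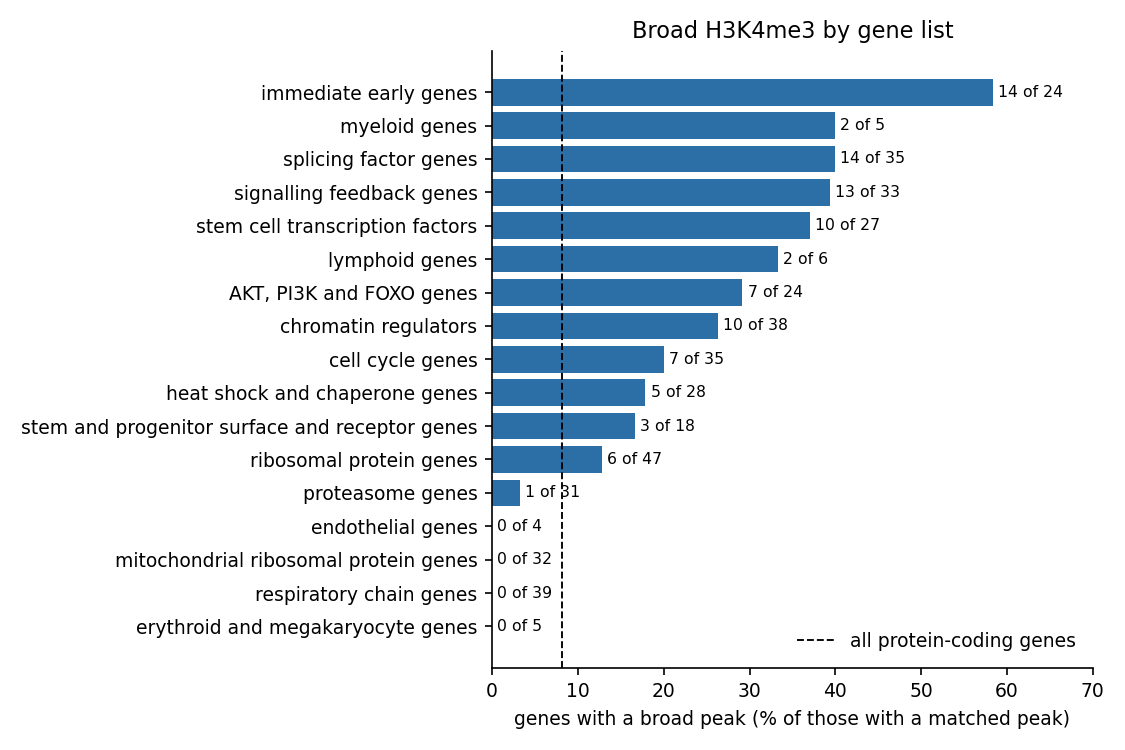
Share of genes with a broad H3K4me3 peak among genes with any matched peak within 1 kb of the start (x axis, %), by gene list, with the counts beside each bar and the value for all protein-coding genes (8.15%) as a dashed line. The 2 lists with no matched peak are left out, and the widths are those of fl.

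The other marks seldom met broad peaks. An H3K9ac peak of HSC overlapped 8 broad peaks in cKO (1.19%, 0.513 to 2.32) and 5 in fl (0.741%, 0.241 to 1.72), against 1.12% and 0.589% of narrower peaks. DEK peaks of fl HSC overlapped 0.148% ± 0.148 of broad peaks (SD, n = 3 libraries, 0.148%, 0% and 0.296%) and 0.173% ± 0.0648 of narrower ones. Only 3 broad peaks met a DEK peak in any library, too few for a statement on DEK at broad promoters, and HSC are a subset of the LSK gate.

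Markers of the gate and of other cells were read as peaks at their starts. Of 8 LSK genes 3 had H3K4me3 in cKO and 6 in fl, with Kit, Cd34 and Flt3 in both lists and neither Ly6a (Sca-1) nor Slamf1 in either. Of 9 genes of mature lineages 1 (Hbb-bt) had H3K4me3 in cKO and 0 in fl, and 0 had H3K27ac. Of 4 endothelial genes Robo4 had H3K4me3 in both lists and Flt1 H3K27ac in cKO, and of 4 stromal genes Cxcl12 had H3K27ac in cKO. Their part in the broad peaks was not tested. The H3K4me3 lists were of similar length, 10159 peaks in cKO and 10514 in fl.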

How the data were processed

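CUT&Tag peak lists of 9 libraries were used. The tools named are Bowtie2, Picard and MACS2, with mm10 as the build, per the submitters' processing notes. For versions, control track and peak threshold the sources used here give nothing. The authors deposited a separate list for each library. Each row gives a position, the deposited score (10 times the −log10 p), the authors' fold enrichment at the summit (a ratio over the caller's background), and the authors' −log10 p and −log10 q. These values served only to rank, filter or describe peaks of the same list. The lists hold no read counts, so depth is unknown, and width, too, may depend on depth.

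The DEK lists lost 16 mitochondrial rows and 9 rows with an irregular strand mark, score or order. Width is the third column of a list minus the second, which counts from 0, so it is 1 more than the difference of the printed coordinates. A cKO width is the sum over all overlapping cKO peaks. H3K27ac was called present where a peak overlapped the fl H3K4me3 peak by 1 bp or more. Coordinates are mm10, counted from 1. Gene starts came from RefSeq (GRCm38.p6): 16457 of 20665 autosomal protein-coding genes had a start and strand in the promoter table, and the other 4208 were placed by either gene end. Of 576 list genes 569 lay on chromosomes 1 to 19. Named genes were, by rule, the 12 widest, the 5 highest and 5 lowest ratios, 4 on each side of 1500 bp, up to 8 of the widest per H3K27ac state, and broad list members. Some of the latter are given by counts only or are not reported here. Scripts were tested on simulated peaks with scipy 1.17.1, pandas 2.3.3 and numpy 2.4.6 under Python 3.11.15, and figures drawn with matplotlib 3.10.9. The members and lists were chosen with earlier results of these data known. Alternatives varied the width line, overlap, joining, q, summit window, list length and gene window.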

Additional observations from a re-analysis of the deposited data

Results flagged for a closer look

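The X chromosome lies outside the comparisons above, and 9 of its 268 matched fl H3K4me3 peaks were 1500 bp or wider. On chromosomes 1 to 19 it was 675 of 9168 (7.36%), with the lowest share, 4.59%, on chromosome 4. The difference was not tested. Among the 9 were peaks at Mid1ip1 (1869 bp in cKO, 2095 bp in fl), Usp9x, Ddx3x, Kdm6a (2013 bp in cKO, 2235 bp in fl), Elf4 (2026 bp in cKO, 2059 bp in fl) and Rps6ka3. Kdm6a encodes an H3K27 demethylase and Elf4 an ETS factor that acts on stem cell quiescence. H3K27ac was present at 7 of the 9 in cKO and at Mid1ip1 and Elf4 in fl. Over the broad peaks of chromosomes 1 to 19 the shares were 90.7% in cKO and 59.7% in fl.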

How the results depend on the processing

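With 1 library per genotype and mark, read depth unknown and no test, these values describe 2 libraries, and the width of a peak and the length of a list may follow depth. Of 32 values under alternatives, 16 stayed within the interval of the value (for DEK within 1 SD, for the member count within 1.5 times) and 16 moved further. With the width line at 1000 bp there were 3038 members, and at 2000 bp 136. The ratio was 0.942 at 1000 bp and 1.00 for peaks chosen by cKO width, of which 84.8% were 1500 bp wide in fl. For peaks with no shared edge, added after seeing the data, the ratio was 0.941 and 65.4% reached 1500 bp in cKO. In the summit window H3K27ac stood at 76.0% (cKO) and 40.6% (fl) of broad peaks and at 75.4% (cKO) and 43.1% (fl) of narrower ones, so in fl the order of broad and narrower peaks turned. At a −log10 q of 5 or more the narrower share in fl was 42.9%. With lists of equal length the cKO shares were 76.1% for broad and 64.5% for narrower peaks. A gene start lay inside 81.9% and within 5 kb of 94.5% of broad peaks. Where the alternative's own construction (a shorter window or list, another line) does not show it, the cause was not tested. Leaving out each DEK library gave 0.0741% to 0.222% of broad peaks with a DEK peak, and without replicate 2 that mean was 0.222% and without replicate 3 0.0741%, from 0.148%. No paired analysis was possible because each genotype and mark has 1 library and the DEK libraries have no partner group.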
